A study of Mus musculus and Mus musculus musculus x Mus musculus castaneus with 52 samples.

Results

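The 41 genes described here are type I interferon-stimulated genes, the antiviral genes that cells switch on when they sense type I interferon. All 41 listed symbols were found among the 16687 genes of the RNA table. They were chosen by measured values of these same libraries, namely high levels at passage 13 (P13) against passage 7 (P7) in induced pluripotent stem cells (iPSCs) and at 0 h in an embryonic stem cell (ESC) experiment. The P13 minus P7 and the 0 h differences are therefore given as descriptions, with no test. The iPSC libraries came from 3 WT lines labelled female (LV20, LV21 and LV22), which the series calls XX at P7 and XO at P13, and from 3 WT XY lines (LV4, LV8 and LV16), each read at P7 and P13. The WT ESC lines CM1 and CM2 (XX) and CM3 and CM7 (XY) were read at passage 5 (P5). A withdrawal experiment held the WT XX ESC line F121, the WT XY ESC line V6.5 and 2 female clones labelled Dusp9+/-, each read at 0 h and after 24 h without LIF, the cytokine that keeps mouse ESCs undifferentiated in serum. The labels give that experiment as serum and LIF culture with no feeder cells. They name no feeder status for the RNA cultures of the LV and CM lines. V6.5 and the LV lines are Mus musculus, whereas the CM, F121 and Dusp9+/- lines have 1 musculus and 1 castaneus parent strain, so in the withdrawal experiment sex and strain cannot be told apart.

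Type I interferons bind the receptor chains Ifnar1 and Ifnar2, whose kinases Jak1 and Tyk2 phosphorylate transcription factors, Stat2 among them. With Irf9 these form a complex that binds interferon-stimulated response elements (ISREs) in the promoters of target genes. The products sense viral RNA, degrade or block it, tag proteins with Isg15 or restrict virus release, and Irf7 feeds back on interferon production itself. Pluripotent stem cells are known for a weak interferon response compared with fibroblasts and macrophages.

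RefSeq promoter windows of GRCm38.p6, 250 bases before to 50 bases after the start site, were found for 29 of the 41 genes. The ISRE core searched was GAAANNGAAA on either strand. It lay in the windows of 11 of the 29 genes (37.9%), against 3.99% of the 27025 genes in the promoter table. The core of the GAS element, TTCNNNGAA, which the interferon-gamma factor binds, lay in 6 of the 29 (20.7%) against 9.55% of all genes. The stretches below are shown because their genes recur in the results, and capitals mark the ISRE cores, which overlap in Isg15 and Oas1a:
Isg15: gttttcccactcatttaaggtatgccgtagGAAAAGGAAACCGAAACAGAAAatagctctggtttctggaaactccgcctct
Ifit1: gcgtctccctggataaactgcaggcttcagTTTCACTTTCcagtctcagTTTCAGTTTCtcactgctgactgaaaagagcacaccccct
Ifit3: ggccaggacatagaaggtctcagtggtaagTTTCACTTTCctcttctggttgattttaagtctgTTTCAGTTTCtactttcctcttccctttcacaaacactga
Oas1a: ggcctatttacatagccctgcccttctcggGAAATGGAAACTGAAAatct
Stat2: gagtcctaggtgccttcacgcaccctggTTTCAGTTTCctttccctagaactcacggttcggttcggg
Each reads 5′ to 3′ on the strand of its gene. They come from chr4:156200845-156200926 (minus strand), chr19:34640755-34640843 (plus), chr19:34583343-34583446 (plus), chr5:120907526-120907575 (minus) and chr10:128270248-128270315 (plus). Isg15 held 3 overlapping cores that began 78 to 66 bases before the start site, and Ifit1 held 2 that began 104 and 85 bases before it. Ifit3 held 2 (156 and 122 bases before) and Oas1a 2 (20 and 14 bases before). The single core of Stat2 lay 222 bases before its start. Irf7, which had the largest passage difference of the female lines, had no match in its window. Between P7 and P13 in the female lines the median difference was 1.50 log2 over the 11 genes with a core and 1.11 over the 18 without, and in the male lines 1.47 and 0.85. At 24 h against 0 h the medians were -1.73 and -1.32. The genes with no window in the table (12, of which 11 were fitted in the iPSC lines) had medians of 1.33, 1.09 and -1.82 in these 3 comparisons, and the ranges of the 3 sets overlapped in each.

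None of the 41 genes lay on chromosome X or Y, and they were spread over 17 chromosomes. Ifit1, Ifit2 and Ifit3 lie in the same cluster on chromosome 19, and Parp9 (chromosome 16, 35938470 to 35972621) overlaps Dtx3l (35926515 to 35939027). Oas1a, the Ifit genes, Trim30a and Ifi27 have near-identical relatives, and how the authors' counting split reads between such copies or overlapping genes is not given in the sources used here, so their values are less certain.

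The 24 libraries held 8309171 to 14245900 reads. Values are log2 CPM (CPM being reads relative to the total of the library, taken to log2 with a small offset) with a floor of -2.45 where a gene had 0 reads. The pluripotency gene Pou5f1 stood between 8.6 and 9.5 in all 24 libraries. Dusp9 itself did not separate the libraries labelled Dusp9+/-: it stood at 5.96 and 7.43 in them at 0 h against 6.93 in F121, and at 7.71 and 6.58 at 24 h against 7.84. These libraries are therefore named by their label throughout.

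The mean over the 41 genes was low in every P7 library. It ran from 2.31 (LV20) to 2.64 (LV21) log2 CPM in the female lines and from 2.46 (LV16) to 2.53 (LV4) in the male lines. At P13 the female lines LV20, LV21 and LV22 stood at 4.45, 3.74 and 4.37. The male lines LV4 and LV8 stood at 4.72 and 4.49, but LV16 at 2.72. Thus 5 of the 6 lines stood well above the P7 range, LV21 least far, and LV16 stood just above it. The CM ESC lines lay within or just above the P7 range, at 2.51, 2.70, 2.34 and 2.68 for CM1, CM2, CM3 and CM7. In the withdrawal experiment the mean at 0 h was 4.59 in F121, 4.22 in V6.5 and 4.43 and 4.51 in the libraries labelled Dusp9+/-. At 24 h it was 3.27, 1.95, 3.06 and 2.95 in the same order, so that every 0 h library stood above every 24 h library and V6.5 at 24 h was the lowest of all 24.

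**Figure D1:**
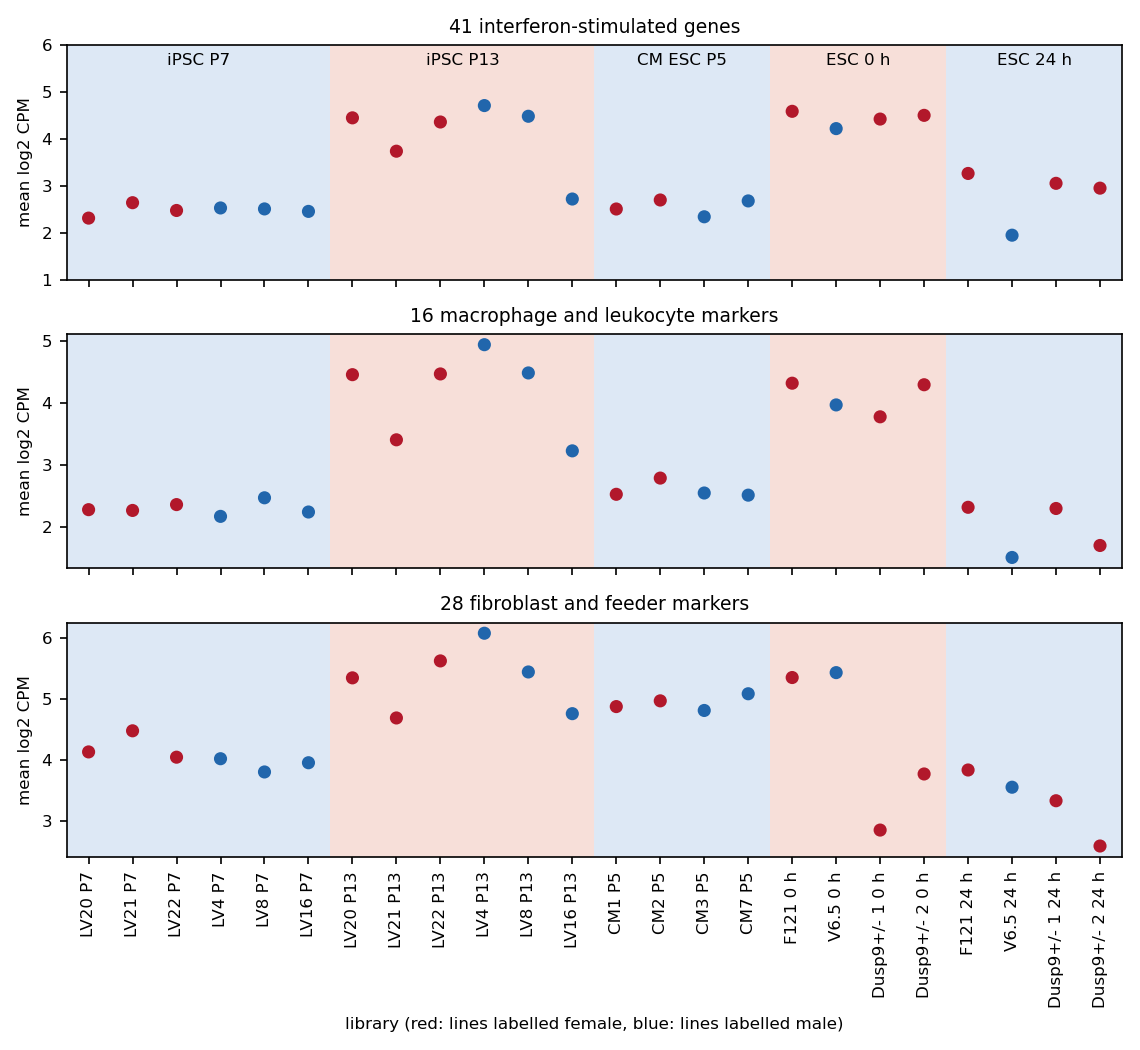
Mean log2 CPM of the 41 interferon-stimulated genes (top), 16 macrophage and leukocyte markers (middle) and 28 fibroblast and feeder markers (bottom) in each of the 24 libraries, 1 point per library, red for lines labelled female and blue for male; blocks mark the experiments. The top points are high at P13 (except LV16, 2.72) and at 0 h, while the bottom points are low in the libraries labelled Dusp9+/- at 0 h (2.85 and 3.77).

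Markers of other cells were read beside these means, since fewer cells of a type and less RNA per cell cannot be told apart in bulk samples. The 16 macrophage and leukocyte markers, none of which is among the 41 genes, summed to 153 to 214 CPM at P7. At P13 they summed to 544 to 737 CPM in LV20, LV22, LV4 and LV8, and to 281 in LV21 and 261 in LV16. They summed to 156 to 224 CPM in the CM lines, to 390 to 505 at 0 h and to 107 to 152 at 24 h. No marker of that list had 0 reads in any library, and its defining genes Ptprc, Csf1r and Adgre1 were all detected. The sums lean on a few genes. In LV22 at P7, for example, Laptm5, Lyz2 and Cd68 had 880, 582 and 246 reads, against 13 for Ptprc. P7 and P13 were compared with limma's test, adjusted over all genes. It called 9 of the 16 higher at P13 in the female lines and 14 of 16 in the male lines. Of all genes it called 9.0% and 13.0%, in either direction. The marker counts ran from 2 to 14 and from 5 to 15 over the alternative settings. They were 14 and 13 with the line as a block, 3 without LV20 at P13 and 5 without LV4 at P13. From 0 h to 24 h limma called all 16 lower, where 32.7% of all genes were called in either direction. The marker lists were set with earlier results of these data known, so these calls are not independent tests. The largest passage difference of the list was that of Fcgr1, an immunoglobulin receptor that interferon also induces (4.16 ± 0.69 log2 in the female lines). Fcgr1 had 1, 2 and 2 reads at P7 in LV20, LV21 and LV22, so the size of that difference leans on the offset of the log2 values. LV21 and LV16, the lowest P13 libraries by these markers, were also the lowest by the 41 genes, and the part of such cells in the interferon-gene levels was not tested.

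The 28 fibroblast and feeder markers followed a partly different pattern. They summed to 756 to 1216 CPM at P7 and to 1215 to 3343 at P13. LV21 (1215) and LV16 (1331) were the lowest P13 libraries by this list too. The sums were 1393 to 1791 CPM in the CM lines and 1885 and 2068 in F121 and V6.5 at 0 h. At 24 h the markers summed to 845 CPM in F121, 794 in V6.5, and 759 and 420 in clones 1 and 2 labelled Dusp9+/-. In the libraries labelled Dusp9+/- at 0 h they summed to 374 and 709 CPM, below the P7 range, while the means of the 41 genes there were 4.43 and 4.51 against 4.59 in F121. There the collagens Col1a1, Col1a2 and Col3a1 stood at 3.4, 2.9 and 2.3 log2 CPM in clone 1 and at 5.8, 4.9 and 3.8 in clone 2, against 7.4, 7.4 and 6.8 in F121. In the CM lines the reverse held: the feeder markers were above the P7 range and the 41 genes were within or next to it. The only zeros of the list were Fap in 3 libraries labelled Dusp9+/- and Lum in V6.5 at 24 h. Of the 27 feeder markers tested, 11 were called higher at P13 in the female lines (1 without LV20 at P13, up to 17 without LV21 at P7). In the male lines 20 were called higher (17 to 23 over the alternatives). From 0 h to 24 h, 13 of the 26 tested were called lower (8 to 17 over the alternatives) and none higher. Of all genes 9.0%, 13.0% and 32.7% were called in these comparisons, in the same order and in either direction. This list too was set with earlier results known, so its calls are not independent tests. The part of these markers in the levels of the 41 genes was not tested.

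**Figure D2:**
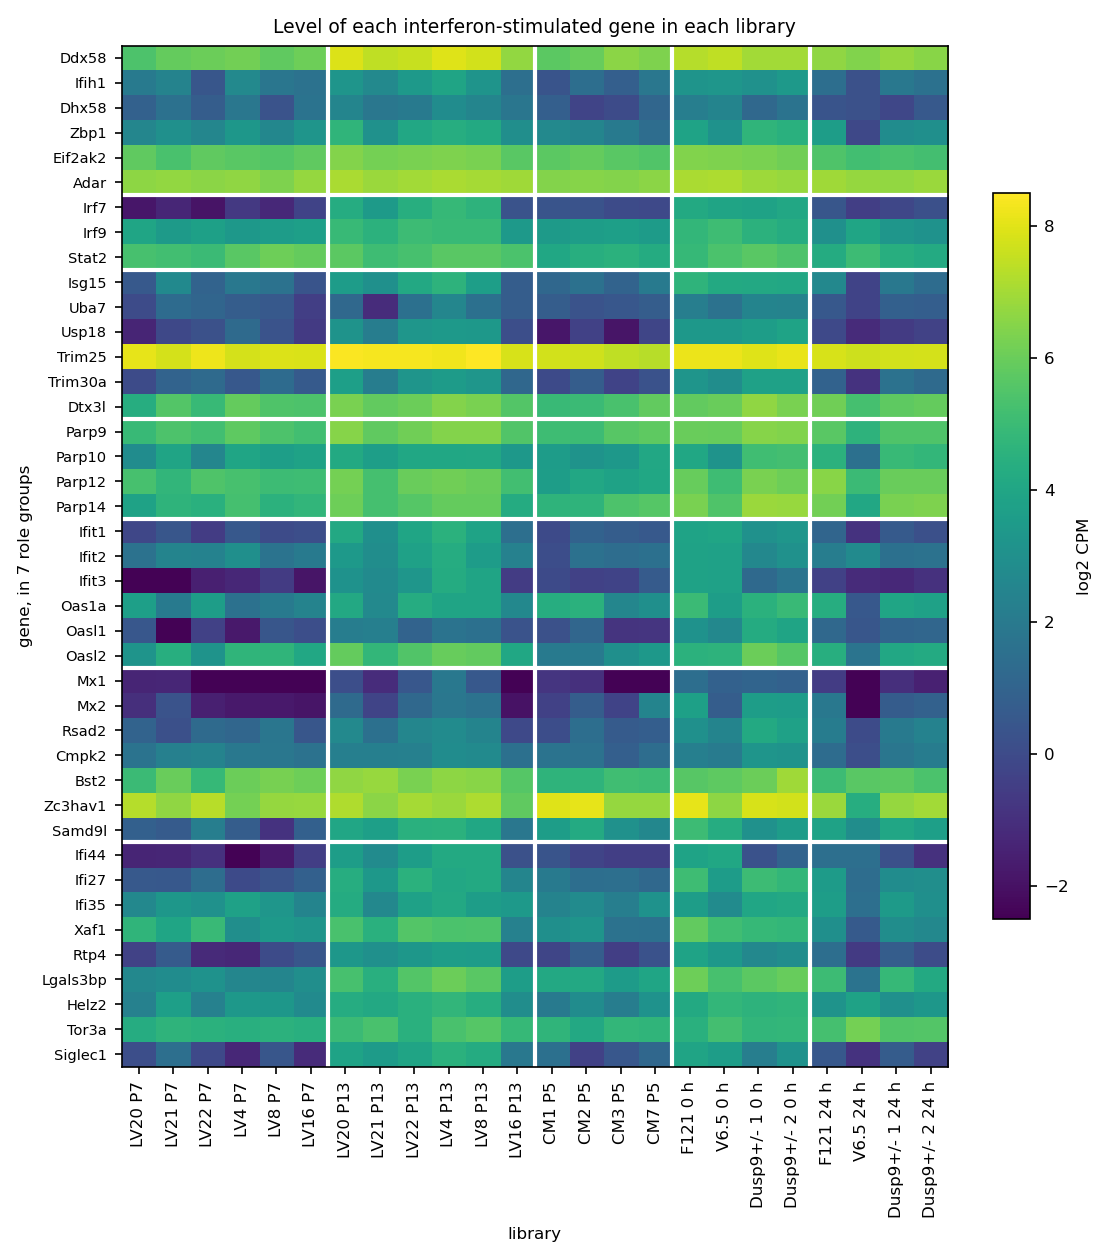
Level (log2 CPM, colour) of each of the 41 genes (rows, in 7 role groups) in each of the 24 libraries (columns); white lines part role groups and experiments. Genes such as Irf7, Ifit3 and Ifi44 run from near the floor of -2.45 at P7 to above 2.7 in 5 of the 6 P13 libraries, whereas Trim25 and Adar are bright in every column.

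The transcription factors of the pathway differed widely from each other between passages. Irf7, the factor that amplifies interferon production (chromosome 7, 141263183 to 141266499), stood at -1.81, -1.34 and -1.91 log2 CPM at P7 in LV20, LV21 and LV22, on 1, 2 and 1 reads. Their P13 values were 4.33, 3.48 and 4.39 (198, 116 and 174 reads). In LV4, LV8 and LV16 it went from -0.66, -1.25 and -0.28 to 4.88, 4.60 and 0.31. All 6 P13 values exceeded all 6 P7 values, but that of LV16 exceeded its own P7 value by only 0.59. The fitted P13 minus P7 difference was 5.75 ± 0.87 (SE) in the female and 3.99 ± 0.87 in the male lines. Stat2 and Irf9 are partners in the factor that binds ISREs. Irf9 differed by 1.11 ± 0.32 and 0.86 ± 0.32, and Stat2, which was among the 3 least different genes, by 0.21 ± 0.17 and -0.29 ± 0.17.

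The IFIT proteins bind viral RNA caps and ends. Ifit3 had 0, 0 and 2 reads at P7 in the 3 female lines and 85, 71 and 80 at P13. Scaled to library size that is a ratio of 127 with a 95% counting interval of 34.9 to 1059, so its fitted difference (5.21) leans on the offset of the log2 values. In LV4, LV8 and LV16 it had 2, 4 and 1 reads at P7 and 192, 143 and 7 at P13. Ifit1 stood at -0.16, 0.43 and -0.54 in the female lines at P7 and at 4.13, 2.99 and 3.99 at P13. In the male lines it went from 0.51, 0.02 and 0.13 to 4.51, 3.86 and 1.52. For Ifit1, LV16 too stood more than 2-fold higher at P13. Ifit2, in the same cluster, differed by only 1.20 ± 0.46 and 1.18 ± 0.46. The OAS family is named for members that make the activator of an RNA-cutting enzyme. Its 3 genes here, Oas1a, Oasl1 and Oasl2, differed by 0.59 to 2.58 in the female and by 0.76 to 1.59 in the male lines.

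Isg15 is a ubiquitin-like tag, Uba7 its activating enzyme and Usp18 the protease that removes it and also damps the receptor. Usp18 stood at -1.37, -0.11 and 0.25 in the female lines at P7 and at 3.16, 2.18 and 3.29 at P13. In LV4, LV8 and LV16 it went from 1.29, 0.32 and -0.65 to 3.39, 3.36 and 0.14. The male P7 and P13 values overlapped through LV16 alone. Trim25, the ubiquitin ligase that activates the RNA sensor Ddx58 (RIG-I), was among the least different: 8.09, 7.80 and 8.21 at P7 and 8.42, 8.35 and 8.36 at P13 in the female lines, and 7.77, 7.93 and 7.88 against 8.25, 8.51 and 7.82 in the male lines. The other 4 members of this role group differed by -0.25 to 2.29 in the female lines (lowest Uba7, highest Trim30a) and by 0.49 to 1.83 in the male lines. Within LV21 the difference of Uba7 was -2.43, the lowest of any member in any of the 6 iPSC lines. It rests on few reads, 22 at P7 and 3 at P13.

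Among the other interferon-induced genes, Ifi44 went in the 3 female lines from -1.37, -1.34 and -0.95 at P7 to 3.63, 2.82 and 3.60 at P13. In LV4, LV8 and LV16 it went from -2.45 (0 reads), -1.73 and -0.45 to 4.19, 4.17 and 0.23. Siglec1, a sialic acid-binding lectin best known from macrophages, stood at 0.13, 1.50 and -0.09 and then at 3.89, 3.53 and 3.92 in the female lines. In the male lines it went from -1.29, 0.45 and -1.13 to 4.52, 4.27 and 1.89, and its difference of 3.02 within LV16 was the largest of all members in that line. Ifi27, a mitochondrial protein, went from 0.59, 0.54 and 1.43 to 4.34, 3.36 and 4.53 and, in the male lines, from -0.04, 0.32 and 0.87 to 4.11, 4.18 and 2.51. For Ifi44, Siglec1 and Ifi27 every P13 value was above every P7 value. Rtp4, a chaperone of receptors at the cell surface, went from -0.33, 0.64 and -1.20 to 3.33, 3.02 and 3.32 and from -1.29, 0.02 and 0.45 to 3.64, 3.60 and -0.06, the last value lying inside the P7 range.

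The sensors detect viral nucleic acid, and the effectors act on the virus. The 6 sensors differed by 0.32 (Adar, the RNA-editing enzyme) to 1.86 (Ddx58) in the female lines and by 0.41 (Adar) to 1.47 (Ddx58) in the male lines. The 4 PARP family genes, which add ADP-ribose to proteins, differed by 0.66 to 1.33 and by 0.02 to 0.68. Samd9l, an antiviral factor that blocks translation, went from 0.86, 0.64 and 2.21 to 3.99, 3.70 and 4.49 and in the male lines from 0.72, -0.90 and 0.87 to 4.53, 4.04 and 1.86. Zc3hav1, which binds CpG-rich viral RNA, hardly differed, with 7.29, 6.68 and 7.31 at P7 against 7.20, 6.61 and 7.01 at P13 and, in the male lines, 6.21, 6.76 and 6.81 against 6.85, 7.16 and 5.83. Mx1, a GTPase that traps viruses, was the only member below a mean of 1 CPM over the iPSC libraries and over the undifferentiated WT ESC libraries and was left out of those fits. It had 0 reads in all 3 male lines at P7 and 36, 12 and 0 at P13.

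The genes that led the log2 difference and those that led the difference in reads were listed separately. On the log2 scale 10 genes (Irf7, Ifit3, Ifi44, Ifit1, Rtp4, Usp18, Siglec1, Ifi27, Samd9l and Oasl1) made 54.2% of the summed female difference, and the 10 largest made 55.3% in the male lines (Ifi44, Siglec1, Irf7, Ifit3, Samd9l, Ifi27, Ifit1, Rtp4, Lgals3bp and Mx1). In summed CPM, which weighs long transcripts more, 5 genes (Ddx58, Trim25, Bst2, Parp9 and Dtx3l) made 47.3% of the female difference of 719 CPM. In the male lines Ddx58, Trim25, Lgals3bp, Adar and Parp9 made 46.4% of 624 CPM. No gene was on both female lists, and Lgals3bp was on both male lists. Ddx58 alone made 20.3% and 20.4%. By role, the sensors made 9.45% of the log2 sum but 30.4% of the CPM sum in the female lines, whereas the IFIT and OAS genes made 21.6% of the log2 sum and 9.12% of the CPM sum.

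The passage difference was counted within each line. More than 2-fold higher at P13 were 29 of 40 genes in LV20 (6.95% of all 13978 genes tested), 15 in LV21 (4.86%), 27 in LV22 (7.45%), 25 in LV4 (9.04%), 28 in LV8 (9.22%) and 5 in LV16 (4.42%). The median difference over the 40 genes was 1.70, 0.59, 1.41, 1.47, 1.37 and 0.15 in the same order, and that over all genes lay between -0.01 and 0.01. The 5 genes past 2-fold in LV16 were Siglec1, Ifi27, Ifit1, Ifit3 and Uba7. Every female P13 library exceeded every female P7 library for 29 of 40 genes, against 14.0% of all genes. In the male lines this held for 13 of 40, against 17.9% of all genes, and for 38 of 40 without LV16 at P13, against 26.4%. Over both sexes it held for 9 genes (4.85% of all genes), namely Ddx58, Adar, Irf7, Ifit1, Ifit3, Ifi44, Ifi27, Lgals3bp and Siglec1, and for 22 without LV16 at P13 (7.17%). The genes were chosen on this contrast, so nothing is read from these shares. The count without LV16 was added after its values were seen.

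**Figure D3:**
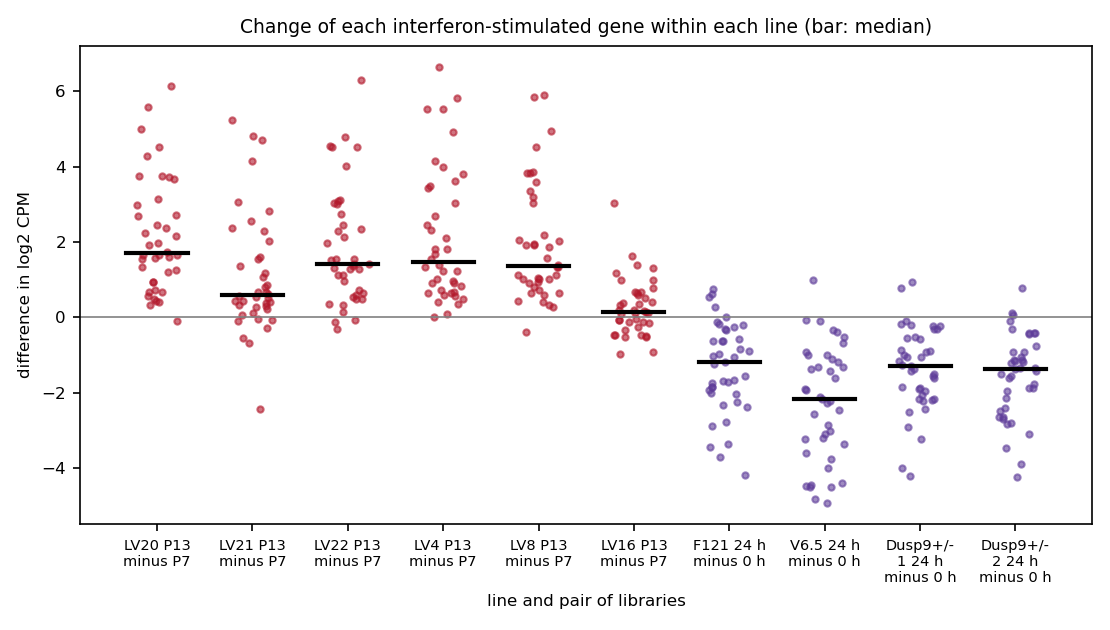
Difference in log2 CPM of each gene within each line, P13 minus P7 for the 6 iPSC lines (red, 40 genes) and 24 h minus 0 h for the 4 withdrawal lines (purple, 41 genes); black bars are medians. The LV16 bar sits at 0.15 while the other iPSC bars lie between 0.59 and 1.70, and all withdrawal bars are below 0.

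Whether the lines differed by sex was tested at P7, at P13 and in ESCs. The choice of the genes did not compare the sexes. It did use P7, P13 and 0 h levels, which enter these tests, so they are not fully independent of it. At P7, limma called 1 of 40 genes different between XX and XY iPSCs, against 4.78% of all genes. It was Stat2, at 5.32, 5.17 and 4.98 log2 CPM in LV20, LV21 and LV22 and at 5.68, 6.06 and 5.88 in LV4, LV8 and LV16. The XX values lay below all XY values, with a difference of -0.72 ± 0.17 (1.65-fold lower in XX, adjusted p = 0.0282, n = 3 lines each, limma). The call was lost without LV20, LV22, LV8 or LV16. Without LV21, 5 genes were called: Stat2, Bst2, Dtx3l and Parp10 lower and Oas1a higher in XX. The share of all genes called without LV21 is not given here, so nothing is read from this count. With every line kept, 6 of 40 genes had an unadjusted p under 0.05 (limma), against 2994 of all 13978.

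At P13 none of the 40 genes was called between XO and XY iPSCs by limma or by voom, and none had an unadjusted p under 0.05, where 0.0286% of all genes were called and 376 of 13978 had such a p. The 3 XY libraries there include LV16, whose mean over the 41 genes was 2.72 against 4.72 and 4.49 in LV4 and LV8. The differences ranged from -1.06 (Uba7) to 0.83 (Rtp4), with a median of 0.23 that turned to -0.32 without LV16. The female minus the male passage difference (an interaction) is built from the values that chose the genes and is given as a description. Over the 40 genes it ran from -1.59 to 1.76, with a median of 0.28. The interaction of Bst2 was 1.15 ± 0.39, and 1.50 without LV21 at P7, and that of Irf7 was 1.76 ± 1.23.

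In undifferentiated WT ESCs, 4 of 40 genes were called higher in XX than in XY lines and none lower, with the experiment as a covariate (7.19% of all genes were called). Zc3hav1 stood at 7.97 and 8.10 in CM1 and CM2 and 8.11 in F121 at 0 h, against 6.75, 6.77 and 6.62 in CM3, CM7 and V6.5. Its difference was 1.34 ± 0.09 (2.54-fold, adjusted p = 2.75e-04, n = 3 lines each, limma). Oas1a, the synthetase whose promoter stretch is shown above, stood at 4.36, 4.51 and 4.99 against 2.54, 2.99 and 3.63, a difference of 1.57 ± 0.20 (2.96-fold, adjusted p = 0.00337, limma). Zc3hav1 and Oas1a kept their calls under all 11 alternatives.

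Xaf1, an inhibitor of anti-apoptotic proteins, and Samd9l completed the 4. Xaf1 stood at 2.96, 3.21 and 5.88 in the XX lines CM1, CM2 and F121 and at 1.65, 1.61 and 5.14 in CM3, CM7 and V6.5, with a difference of 1.22 ± 0.22 (adjusted p = 0.0162, limma). Samd9l stood at 3.61, 4.21 and 5.04 against 3.06, 2.61 and 4.32, with a difference of 0.95 ± 0.23 (adjusted p = 0.0447, limma). Both were higher in XX within each experiment. The Xaf1 call was lost under 3 and the Samd9l call under 6 of the 11 alternatives. Within the CM lines alone 7 genes were called, Oas1a, Xaf1, Zc3hav1 and Trim25 higher and Ddx58, Parp9 and Parp14 lower in XX. The share of all genes called among the CM lines is not given here, so nothing is read from this count. F121 and V6.5 also differ in strain, whereas the 4 CM lines share a cross.

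**Figure D4:**
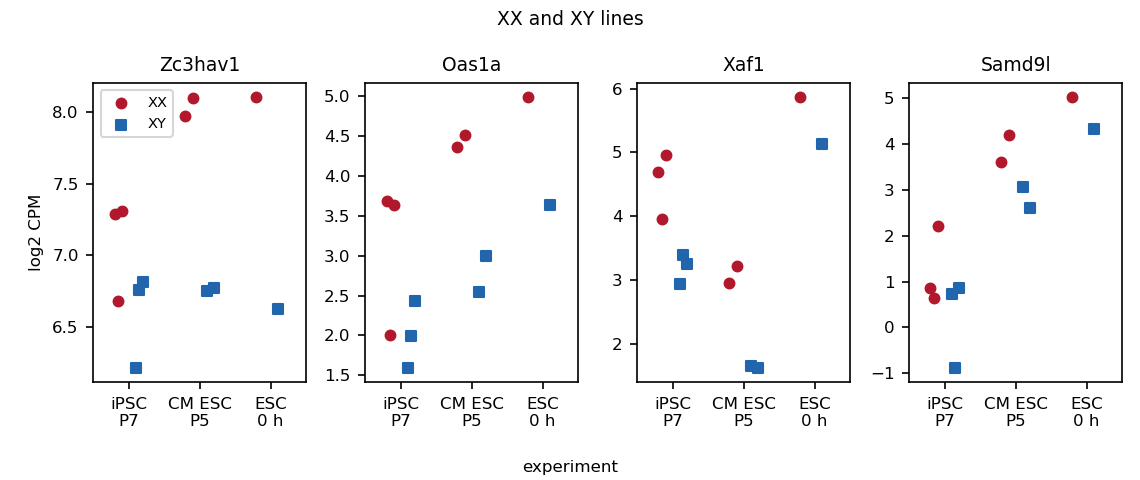
Level (log2 CPM) of Zc3hav1, Oas1a, Xaf1 and Samd9l in the XX (red circles) and XY (blue squares) libraries of 3 experiments, 1 point per line. In the CM lines and at 0 h each XX point lies above each XY point of its experiment. At P7 the XX line LV21 lies among the XY lines for Zc3hav1 (6.68), Oas1a (2.00) and Samd9l (0.64). For Samd9l the XX line LV20 (0.86) lies among them too.

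In XX and XY iPSCs at P7 the same 4 genes had differences of 0.50 ± 0.28 (Zc3hav1), 1.11 ± 0.51 (Oas1a), 1.35 ± 0.61 (Xaf1) and 1.00 ± 0.64 (Samd9l). None passed the adjusted threshold in these lines, but Xaf1 did with the spread taken from the P7 libraries alone (adjusted p = 0.0323, limma) and Oas1a did without LV21. Xaf1 stood at 4.70, 3.95 and 4.96 in LV20, LV21 and LV22 and at 2.93, 3.39 and 3.25 in LV4, LV8 and LV16, without overlap.

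After LIF withdrawal the levels of most of the 41 genes were lower in all 4 lines. More than 2-fold lower at 24 h were 23 of 41 genes in F121 (6.87% of the 14335 genes tested), 33 in V6.5 (9.15%), 26 in clone 1 (7.93%) and 29 in clone 2 (8.09%) of those labelled Dusp9+/-. Every 0 h library exceeded every 24 h library for 24 of 41 genes, against 8.29% of all genes. The median difference was -1.58 log2 over the 41 genes and 0.02 over all genes. The 0 h level was used to choose the genes, and these shares too are a description.

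Usp18 had the largest withdrawal difference. In F121, V6.5, clone 1 and clone 2 it stood at 3.37, 3.35, 3.62 and 3.88 at 0 h and at -0.08, -1.13, -0.60 and -0.35 at 24 h, a difference of -4.10 ± 0.22. Irf7 went from 4.16, 3.94, 3.86 and 4.08 to 0.45, -0.46, -0.16 and 0.17 (-4.00 ± 0.18). For both genes every 0 h value lay far above every 24 h value in all 4 lines. Ifit3 and Ifit1 stood lower in the libraries labelled Dusp9+/- than in the other lines at 0 h: Ifit3 went from 3.83, 3.79, 1.28 and 1.73 to -0.37, -1.13, -1.25 and -0.93 (-3.57 ± 0.41) and Ifit1 from 3.87, 3.97, 3.06 and 3.26 to 1.09, -0.87, 0.62 and 0.17 (-3.29 ± 0.36). Siglec1 went from 3.90, 3.63, 2.19 and 3.12 to 0.54, -0.87, 0.69 and -0.35, and Xaf1 from 5.88, 5.14, 4.87 and 4.77 to 2.98, 0.63, 2.90 and 2.63. The 24 h values of Irf7 and Usp18 overlapped those of the CM lines, where Irf7 stood between -0.06 and 0.34 and Usp18 between -1.86 and -0.18.

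Only 2 of the 41 genes had a positive mean difference at 24 h. Tor3a, an ATPase of the endoplasmic reticulum, went from 4.50, 5.22, 4.74 and 4.78 to 5.24, 6.21, 5.52 and 5.57, higher in all 4 lines (0.83 ± 0.08), and Parp12 differed by 0.03 ± 0.14. Samd9l was lower at 24 h in F121 (5.04 to 3.85) and V6.5 (4.32 to 2.90) but higher in clone 1 (3.06 to 4.01) and clone 2 (3.57 to 3.69). In summed CPM the 0 h minus 24 h difference of 695 CPM was led by Zc3hav1 (16.0%), Trim25, Ddx58, Eif2ak2 and Lgals3bp, which made 42.2% together. Zc3hav1, whose P7 and P13 values overlapped in both sexes, stood at 8.11, 6.62, 7.84 and 7.73 at 0 h and at 6.86, 4.36, 6.78 and 6.97 at 24 h.

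V6.5 stood apart at 24 h. At 0 h 4 of 41 genes were more than 2-fold higher in F121 than in V6.5 (Oas1a, Mx2, Zc3hav1 and Ifi27), against 8.49% of all genes. At 24 h 23 of 41 were (11.0% of all genes), among them Lgals3bp, a secreted glycoprotein, at 5.03 in F121 and 1.67 in V6.5. With 1 library per line and time this difference has no replicate check. The macrophage markers were also lower in V6.5 at 24 h (107 CPM) than in F121 (146 CPM). They summed to 112 CPM in clone 2 at 24 h, where the mean of the 41 genes was 2.95 against 1.95 in V6.5. As a mean of log2 CPM, the markers stood at 1.70 in clone 2 and 1.51 in V6.5. The part of such cells in the low V6.5 values was not tested. At 0 h both lines exceeded all 4 CM lines for 33 of 40 genes, against 17.8% of all genes, in different experiments, passages and cultures that cannot be told apart.

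At 0 h the means over the 41 genes lay close together in the libraries labelled Dusp9+/- and F121, while single genes differed in both directions. Ifi44 stood at 0.28 and 1.02 in clones 1 and 2 against 3.87 in F121 and 4.06 in V6.5, a difference from F121 of -3.22 ± 0.54. Ifit3 stood at 1.28 and 1.73 against 3.83 (-2.33 ± 0.35), and Samd9l at 3.06 and 3.57 against 5.04 (-1.72 ± 0.27). Siglec1 stood at 2.19 and 3.12 against 3.90. In the other direction Oasl2, an OAS-like RNA sensor partner, stood at 6.02 and 5.59 against 4.59 (1.22 ± 0.22), and Parp10 at 5.12 and 5.22 against 4.05 (1.12 ± 0.17). Both clones were more than 2-fold below F121 for 4 of 41 genes (Ifit3, Samd9l, Ifi44 and Xaf1), against 2.48% of all genes, and more than 2-fold above it for 2 (Parp10 and Oasl2), against 4.17%. The median difference over the 41 genes was -0.16.

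At 24 h, a contrast that did not enter the choice, limma called none of the 41 genes between the libraries labelled Dusp9+/- and F121, and voom called none, with 7 at an unadjusted p under 0.05 (of all 14335 genes 2.55% were called and 3590 had such a p). The 6 largest differences were all negative. They were those of Ifi44 (-1.90 ± 0.54), Mx2 (-1.10 ± 0.27), Rtp4 (-1.08 ± 0.36), Isg15 (-0.99 ± 0.28), Ifit3 (-0.72 ± 0.35) and Mx1 (-0.71 ± 0.39). Ifi44 stood at 0.18 and -0.93 against 1.53, and Isg15 at 1.91 and 1.37 against 2.63. Here F121 is a single library, assumed to vary like the clones. The choice of the genes did use the 0 h rise, whose low side includes these 24 h levels. The comparison at 24 h is therefore not fully independent of it.

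**Figure D5:**
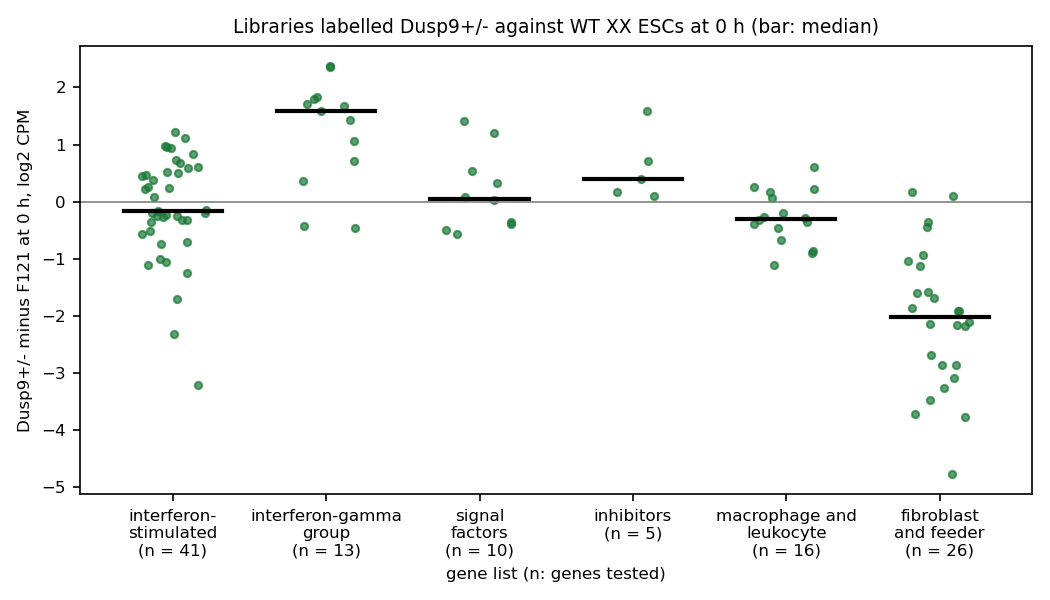
Fitted difference in log2 CPM, libraries labelled Dusp9+/- minus F121 at 0 h, for each tested gene of 6 lists (1 point per gene, black bar the median). The 41 interferon-stimulated genes centre on -0.16 and spread from -3.22 to 1.22, the interferon-gamma group centres on 1.59 and the fibroblast and feeder markers on -2.02.

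Other genes of the interferon pathway were read from a list of 60, of which 45 had a row and were tested in the iPSC and withdrawal fits. This list was set with earlier results of these data known, so its calls are not independent tests. The 12 listed interferon genes, Ifnb1 and Ifng among them, had no row in the RNA table, so their levels could not be read. From P7 to P13, 4 pathway genes were called higher and 1 lower in the female lines (9.0% of all genes were called), and 5 higher and 4 lower in the male lines (13.0%). The higher calls fell to 0 without LV20 or LV22 at either passage in the female lines and without LV4 at P13 in the male lines, and the male lower calls ran from 1 to 10 over the alternatives. B2m, the light chain of MHC class I, went from 5.05, 5.62 and 4.81 at P7 to 6.74, 6.03 and 7.05 at P13 in the female lines. It rose by 1.45 ± 0.33 there (2.72-fold, adjusted p = 0.0187, limma). In the male lines it rose by 1.36 ± 0.33 (2.57-fold, adjusted p = 0.0163, limma), and each call was kept under 8 of 12 alternatives. B2m does not stand for its list: over the 13 tested genes of the interferon-gamma group the median passage difference was 0.15 in the female lines (7 higher, 6 lower). In the male lines that median was -0.55 (4 higher, 9 lower). Socs3, an inhibitor of cytokine receptors, fell by 1.11 ± 0.18 (adjusted p = 0.00575, limma) in the female lines and by 1.31 ± 0.18 (adjusted p = 0.00135, limma) in the male lines, calls kept under all 12 alternatives. Its P13 values lay below its P7 values in all 6 lines.

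The receptor chains and their kinases were mostly uncalled between passages. Ifnar1 lay between 5.7 and 6.3 log2 CPM in all 24 libraries, Jak1 between 6.4 and 7.3 and Tyk2 between 5.3 and 6.0, while Ifnar2 ran from 1.5 to 3.2. Neither Ifnar1, Ifnar2, Jak1 nor Tyk2 was called between passages in either sex. From 0 h to 24 h 21 pathway genes were called lower and 2 higher (32.7% of all genes were called). Of the 9 receptors and kinases 5 were among those called lower. Ifnar2 fell by 0.79 log2 ± 0.16 (adjusted p = 0.00807, limma), and Socs3 had the largest fall (2.68). Irf1 and Irf3 were the genes called higher. Irf1, a factor that interferon-gamma induces strongly, stood at 5.26, 4.53, 6.46 and 6.46 at 0 h and at 7.29, 5.09, 7.09 and 7.20 at 24 h.

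The genes typical of interferon-gamma parted from the 41 genes in the libraries labelled Dusp9+/-. At 0 h, 12 pathway genes were called higher than in F121 and 1 lower (8.91% of all genes were called), and 8 of the 13 tested genes of the interferon-gamma group were among the 12. F121 is again a single library. These p-values (n = 2 clones against 1) thus rest on the spread between the clones in a limma fit across all genes. The list was set with earlier results known, so these calls are not independent tests. Gbp2, an interferon-induced GTPase, stood at 6.30 and 6.63 in the clones against 4.09 in F121 and 3.00 in V6.5, a difference of 2.38 ± 0.19 (5.20-fold, adjusted p = 0.0135, limma). The immunoproteasome subunit Psmb9 stood at 2.73 and 2.91 against 0.47 in F121 (5.10-fold, adjusted p = 0.0195, limma). Irf1 was 2.29-fold higher (adjusted p = 0.0149, limma). Gbp2, Psmb9 and Irf1 kept their calls under all 6 alternatives. The group's count ran from 3, with no filter on low values, to 9. At 24 h no pathway gene was called between these libraries and F121 by limma, with 9 at an unadjusted p under 0.05. Gbp2 then stood at 6.31 and 6.10 in the clones and at 5.25 in F121. The macrophage markers gave no call at 0 h, while 12 of 26 feeder markers were called lower (1 to 20 over the alternatives), and their part in these differences was not tested.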

How the data were processed

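The authors deposited log2 CPM per gene symbol, a unit recorded as other because the files use decimal commas; per the submitters' processing notes STAR 2.5.3a, featureCounts and edgeR were used with GRCm38 (mm10), in roles not given. Read counts were recovered from the value steps of the deposited table (100.0% whole within 0.01 read). Each withdrawal library has a technical repeat in the labels but 1 column, and whether repeats were combined is not stated. The 20 chromatin samples were not analysed here.

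Each comparison used limma 3.58.1 (R 4.3.3; lmFit and eBayes with trend) on genes that averaged 1 CPM or more in the libraries fitted (two-sided, Benjamini-Hochberg over all genes, threshold 0.05). The alternatives were log2(CPM + 1), no filter, voom on recovered reads, median centring, each library left out, the spread of the compared libraries alone and a replicate block. Fits were tested on simulated data. P7 and P13 libraries of a name come from the same cell line, which pairs them; their deviations correlated at -0.039 to 0.11. P-values measure the spread between these lines and libraries.

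The members and lists were chosen with earlier results of these data known. Named are the 8 largest passage differences per sex, the 6 largest for withdrawal and for Dusp9+/-, every called member and the 3 least different; ends of ranges, genes of small counts and leaders by reads were named after their values were seen.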

Additional observations from a re-analysis of the deposited data

How the results depend on the processing

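The median differences of the 41 genes for passage and withdrawal kept their direction under every alternative run: 1.13 to 1.57 log2 for passage in the female lines, 0.67 to 1.51 in the male lines and -1.63 to -1.26 for 24 h against 0 h. For Dusp9+/- against F121 at 0 h the median of -0.16 became -0.22 with libraries centred on their medians and ran from -0.148 to -0.067 with either clone left out. The median for XO against XY iPSCs at P13 (0.23) ran from -0.315, without LV16, to 0.481, and that for XX against XY WT ESCs (0.115) from -0.072 to 0.236. Counts of called genes moved too, but the share of all genes called is not given here for the alternatives. For XX against XY iPSCs at P7 the count of 1 ran from 0 to 5 with a library left out and was 2 with the spread of those libraries alone. For XX against XY WT ESCs the count of 4 ran from 2 to 10 with a library left out and was 7 in the CM lines alone. The median of the female minus the male passage difference (0.28) ran from -0.173 to 0.522 over the alternatives. With the line as a replicate block, paired over passages, the medians for passage and withdrawal were unchanged. The other comparisons have no paired libraries. Dusp9+/- against WT XX could not be fitted without F121. Genes with few reads at P7, such as Ifit3 and Irf7, have differences that depend on the offset of the log2 values, and groups of 3 or fewer libraries limit the precision of every difference.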
